A study of Mus musculus with 22 samples.

Results

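A set of 9 genes whose products restrain or start the breakdown of extracellular matrix was followed through the sorted stroma of mouse tumors. They are the tissue inhibitors of metalloproteinases *Timp1*, *Timp2*, *Timp3* and *Timp4*, the membrane-anchored inhibitor *Reck*, the plasminogen activators *Plau* (urokinase) and *Plat* (tissue-type), the urokinase receptor *Plaur*, and *Serpine2* (protease nexin-1), a serpin that inhibits urokinase, thrombin and plasmin. The members were fixed by gene symbol and not by a rule on their values, though with earlier results of these data known. All 9 were found among the 41388 genes of the files. Of these, 8 passed the filter for testing and *Timp4* did not.

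TIMPs are small secreted proteins that block the active site of matrix metalloproteinases, and TIMP3, which binds to the matrix, also inhibits several ADAM and ADAMTS enzymes. Plasminogen activators cleave the zymogen plasminogen into plasmin, which degrades fibrin and matrix proteins and activates some metalloproteinase precursors. Urokinase acts largely at the cell surface, bound to its receptor, and serpins such as protease nexin-1 hold it in check. In tumors both systems are shared out between fibroblasts, leukocytes, endothelial cells and cancer cells.

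RNA came from C57BL/6 mice at postnatal day 56 in which a doxycycline-repressible Osx-cre, driven by the *Sp7* promoter, switches on the TdTomato reporter Ai9. Mice labelled as wild type were Osx-cre;Ai9, and the others were Cdh2-cKO;Ai9, a conditional knockout of the N-cadherin gene *Cdh2*, so both genotypes carried a Cre and the reporter. The labels give 4 inoculated wild type mice and 6 Cdh2-cKO mice, from which preparations with intact RNA (average RIN 8.95) were chosen. The tumors are called orthotopic MMTV-BO1 in the sample labels and subcutaneous in the design text of the series. The study's results describe a subcutaneous GFP-labelled PyMT-BO1 line whose GFP+ cells were removed before sorting. The study's methods state that some groups of mice were kept on doxycycline until weaning, and its results that such mice served all later experiments. Its RNA sequencing methods do not name the diet. In mice so fed, TdTomato marks cells that expressed Osx after the diet ended, and their descendants. It reports lineage and not present *Sp7* expression.

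Cells were sorted into 4 populations, TdT single positive (TdTOSX+;CD45-), double negative (TdTOSX-;CD45-), double positive (TdTOSX+;CD45+) and CD45 single positive (TdTOSX-;CD45+). Per genotype, TdT single positive cells gave 2 libraries and the remaining populations 3 each, 22 in all. Levels are given as normalized CPM, that is counts relative to the library total after scaling with TMM factors. In these bulk libraries, fewer cells of a type and less RNA per cell cannot be told apart. The labels call the replicates biological but do not say which mouse gave which library, so p-values measure the spread between libraries.

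Between 16594228 and 26784003 reads were counted per library, and replicates differed by 49.7 to 409 times the counting variance, so no pair was a repeat deposit. The sum of 7 leukocyte markers was 11750 to 16960 normalized CPM in the CD45+ libraries. It was 211 to 2324 in 8 of the 10 CD45- libraries, but 7972 in double negative wild type replicate 3 and 5228 in TdT single positive Cdh2-cKO replicate 1. The sum of 8 fibroblast markers was 4309 to 60190 in CD45- libraries and 63.6 to 222 in CD45+ libraries. CD45 single positive wild type replicate 2 stood apart by B cell markers, with a sum of 3450 where the other 21 libraries had at most 21.6. It also had the highest sums of T cell (1538, others at most 309.8) and neutrophil markers (848, others at most 95.8), the highest endothelial sum (219) and the lowest macrophage sum (2240) of the CD45+ libraries. *Sp7* itself was at 0 or 1 count in every library. The label was not borne out by *Cdh2* in the CD45- populations, where it is expressed. In the libraries labelled Cdh2-cKO it was at 13.1 and 17.2 normalized CPM in their TdT single positive cells against 5.19 and 9.13 in wild type, and at 12.5, 14.2 and 18.4 against 4.52, 6.02 and 7.47 in double negative cells (log2 differences 1.08 and 1.32, adjusted p = 0.668 and 0.623, edgeR). In CD45+ cells it had at most 2.74 normalized CPM, with differences of -0.55 in double positive and 0.69 in CD45 single positive cells (adjusted p = 1.0 and 0.787, edgeR). Counts summed over a gene do not show the loss of single exons, so Cdh2-cKO is used throughout as the label of a library and not as a checked genotype.

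Promoter sequence is shown for *Timp1* and *Plaur*, abundant members with opposite patterns between CD45- and CD45+ cells. Both are the 250 bases before the RefSeq start on GRCm38, written 5′ to 3′ along the plus strand, which is the coding strand of both genes. For *Timp1* this is chrX:20869916-20870165 and for *Plaur* chr7:24462233-24462482. Capitals mark matches, on either strand, to the GC box letters GGGCGG or the AP-1 letters TGANTCA.
Timp1: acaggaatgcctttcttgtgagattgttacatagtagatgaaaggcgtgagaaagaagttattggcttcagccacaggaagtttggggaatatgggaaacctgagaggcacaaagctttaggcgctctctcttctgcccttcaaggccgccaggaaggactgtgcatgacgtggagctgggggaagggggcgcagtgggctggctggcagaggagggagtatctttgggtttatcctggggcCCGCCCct
Plaur: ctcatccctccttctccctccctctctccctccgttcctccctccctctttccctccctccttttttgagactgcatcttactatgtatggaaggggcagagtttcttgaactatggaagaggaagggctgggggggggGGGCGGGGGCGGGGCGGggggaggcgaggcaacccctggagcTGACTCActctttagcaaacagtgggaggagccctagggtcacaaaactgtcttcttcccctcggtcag
*Timp1* held 1 GC box match, at -8 to -3 from the start, and none to the AP-1 letters. *Plaur* held an AP-1 match at -69 to -63 and 3 GC box matches, at -111 to -106, -105 to -100 and -100 to -95, of which the last 2 share a base. Of all 32851 promoter stretches of this length, 6.75% held the AP-1 letters and 32.7% the GC box letters. Neither stretch held the PU.1 letters GAGGAAGT, found in 2.44% of all stretches, or the TATA letters TATAAA, found in 12.4%. These matches are letters in a window, not measured binding.

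The question put first was how each gene was distributed between CD45- and CD45+ stroma. Of the 8 tested members, 6 were higher and 1 was lower in CD45- cells (edgeR quasi-likelihood test, Benjamini-Hochberg adjusted p of at most 0.05). Across all 15018 genes tested, 31.1% were called higher, 32.6% lower and 63.7% in either direction, so a call by itself is common here. The median log2 fold change was 2.80 over the 8 members and -0.06 over all genes. All libraries of CD45- cells lay above all of CD45+ cells for 4 members, *Timp1*, *Timp3*, *Plat* and *Serpine2*, and 0 members lay entirely below. Of all tested genes, 11% lay entirely above, 3.71% entirely below and 14.7% either way. The sizes ran from a 196-fold higher level for *Serpine2* to a 2.75-fold lower level for *Plaur*.

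**Figure D1:**
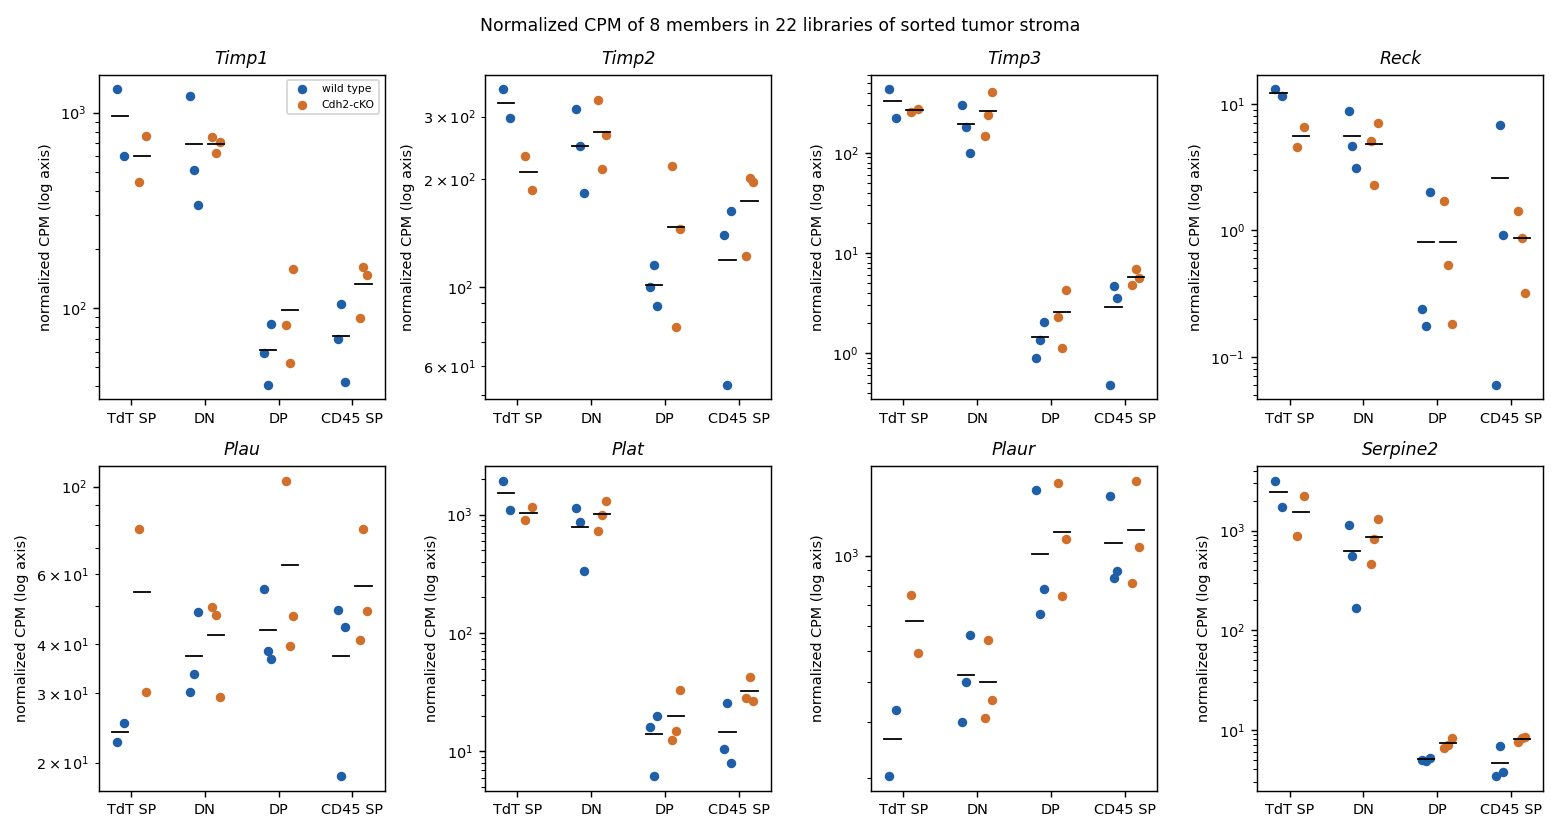
Normalized CPM (log axis) of the 8 tested members in each of the 22 libraries, by population (TdT SP, TdT single positive; DN, double negative; DP, double positive; CD45 SP, CD45 single positive) and genotype (blue, wild type; orange, Cdh2-cKO), with short lines at the group means. *Timp1*, *Timp3*, *Plat* and *Serpine2* are separated without overlap between the CD45- and the CD45+ populations, while *Plaur* rises and *Plau* stays in one range.

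*Timp1* (ENSMUSG00000001131, chromosome X from 20870166 to 20874735, plus strand, GRCm38) was the member with the highest level per length in CD45- cells. Its TdT single positive libraries had 1316 and 604 normalized CPM in wild type and 441 and 761 in Cdh2-cKO. The double negative libraries had 1222, 506 and 336 in wild type and 751, 620 and 709 in Cdh2-cKO. CD45+ libraries were all lower, and the ranges of both CD45- populations overlapped almost fully. Double positive cells had 59.3, 40.7 and 83.4 in wild type and 82.2, 52.6 and 159 in Cdh2-cKO. CD45 single positive cells had 69.5, 105 and 41.9 in wild type and 89.4, 162 and 148 in Cdh2-cKO. The highest CD45+ library (162) thus lay below the lowest CD45- library (336). The log2 fold change between CD45- and CD45+ cells was 3.06 (standard error 0.27, adjusted p = 4.72e-08), an 8.32-fold difference.

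*Timp2* (ENSMUSG00000017466, chromosome 11 from 118301069 to 118355740, minus strand), which encodes an inhibitor that also takes part in the activation of pro-MMP2 at the cell surface, was the most evenly spread inhibitor. Its TdT single positive libraries had 358 and 298 normalized CPM in wild type and 233 and 187 in Cdh2-cKO, and the double negative libraries 315, 248 and 183 and then 334, 215 and 266. Double positive libraries had 100, 116 and 88.5 in wild type and 219, 77.4 and 145 in Cdh2-cKO. CD45 single positive libraries had 140, 53.3 and 163 in wild type and 122, 202 and 197 in Cdh2-cKO. The sides overlapped, since 3 CD45+ libraries of Cdh2-cKO mice (197, 202 and 219) exceeded the lowest CD45- libraries (183 and 187). CD45- cells were higher by 0.98 on the log2 scale (standard error 0.20, adjusted p = 0.000382), the smallest of the 6 members called higher.

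*Timp3* (ENSMUSG00000020044, chromosome 10 from 86300372 to 86349506, plus strand) was nearly restricted to CD45- cells. TdT single positive libraries had 432 and 226 normalized CPM in wild type and 256 and 276 in Cdh2-cKO. Double negative libraries had 298, 182 and 99.4 in wild type and 148, 237 and 409 in Cdh2-cKO, so the ranges of both CD45- populations overlapped. In CD45+ cells no library exceeded 6.96. Double positive cells had 0.891, 1.35 and 2.06 in wild type and 2.26, 1.12 and 4.27 in Cdh2-cKO. CD45 single positive cells had 0.481, 4.64 and 3.50 in wild type and 4.72, 6.96 and 5.64 in Cdh2-cKO. On the log2 scale the difference was 6.53 (standard error 0.38, adjusted p = 2.54e-10). Of its 8144 exon bases, 1733 are shared with exons of the opposite-strand gene *Syn3*, in which it lies. The counting left out reads that fit more than 1 gene, and *Syn3* had 157 counts over all libraries against 57833 for *Timp3*.

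*Timp4* (ENSMUSG00000030317, chromosome 6 from 115245616 to 115251849, minus strand), an inhibitor best known from heart and fat, was close to undetected. It had 34 counts in all, 29 of them over the 10 CD45- libraries and 5 over the 12 CD45+ libraries. Its highest level was 0.358 normalized CPM, in double negative wild type replicate 2, and 3 counts correspond to 0.103 to 0.201 normalized CPM in these libraries. It is not compared further at this depth. *Timp1* and *Timp4* likewise lie within synapsin genes on the opposite strand, *Syn1* and *Syn2*, but share no exon base with them.

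*Reck* (ENSMUSG00000028476, chromosome 4 from 43875530 to 43944806, plus strand), which encodes a membrane-anchored inhibitor of several metalloproteinases, was a low-level gene of CD45- cells. TdT single positive libraries had 13.01 and 11.4 normalized CPM in wild type and 4.56 and 6.56 in Cdh2-cKO, and double negative libraries had 8.83, 4.66 and 3.08 in wild type and 5.10, 2.28 and 7.04 in Cdh2-cKO. Double positive libraries had 0.238, 0.175 and 2.00 in wild type and 1.71, 0.534 and 0.180 in Cdh2-cKO. CD45 single positive libraries had 0.0602, 6.82 and 0.916 in wild type and 1.43, 0.870 and 0.320 in Cdh2-cKO. The value of 6.82 belongs to CD45 single positive wild type replicate 2, the CD45+ library that stood apart by its markers, and the other 11 CD45+ libraries lay below the lowest CD45- library. The log2 fold change was 2.55 (standard error 0.57, adjusted p = 0.000815), and 3.14 (adjusted p = 4.51e-05) without that library. In the 11 wild type libraries alone it was 2.49 with an adjusted p of 0.0591.

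*Plat* (ENSMUSG00000031538, chromosome 8 from 22757744 to 22782847, plus strand) came next after *Timp1* among the members by level per length in CD45- cells. TdT single positive libraries had 1935 and 1090 normalized CPM in wild type and 906 and 1166 in Cdh2-cKO. Double negative libraries had 1128, 870 and 335 in wild type and 722, 987 and 1308 in Cdh2-cKO, the lowest being wild type replicate 3. CD45+ libraries were far lower, without overlap. Double positive cells had 16.2, 6.20 and 19.8 in wild type and 12.5, 14.8 and 32.8 in Cdh2-cKO. CD45 single positive cells had 10.4, 25.5 and 8.03 in wild type and 28.2, 42.8 and 26.8 in Cdh2-cKO. The log2 fold change was 5.78 (standard error 0.32, adjusted p = 1.84e-10), a 54.9-fold difference.

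*Plau* (ENSMUSG00000021822, chromosome 14 from 20836662 to 20843388, plus strand), the other activator, did not follow *Plat*. TdT single positive libraries had 22.6 and 25.3 normalized CPM in wild type and 78.0 and 30.2 in Cdh2-cKO, and double negative libraries had 30.1, 33.6 and 48.1 in wild type and 49.4, 47.4 and 29.3 in Cdh2-cKO. Double positive libraries had 55.2, 38.3 and 36.7 in wild type and 104, 39.4 and 46.9 in Cdh2-cKO. CD45 single positive libraries had 48.8, 18.5 and 44.1 in wild type and 41.0, 78.3 and 48.5 in Cdh2-cKO. All 4 populations overlapped, and the lowest value of all was that of the CD45 single positive library that stood apart by its markers. The log2 fold change between CD45- and CD45+ cells was -0.37 (95% interval -0.85 to 0.11, adjusted p = 0.164). Without TdT single positive Cdh2-cKO replicate 1, the library with 78.0, it was -0.58 (adjusted p = 0.0405), a call that rests on leaving out this library. Without all 3 libraries that stand apart by their markers, a set chosen after the values were seen, it was -0.66 (adjusted p = 0.0102).

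*Plaur* (ENSMUSG00000046223, chromosome 7 from 24462500 to 24475873, plus strand) was the 1 member higher in CD45+ cells. Double positive libraries had 1605, 653 and 787 normalized CPM in wild type and 1691, 748 and 1131 in Cdh2-cKO. CD45 single positive libraries had 1540, 850 and 893 in wild type and 818, 1721 and 1068 in Cdh2-cKO. In each of these populations and genotypes, a single library stood well above the other two. CD45- libraries were lower but far from 0. TdT single positive cells had 203 and 326 in wild type and 754 and 492 in Cdh2-cKO, and double negative cells had 299, 401 and 561 in wild type and 308, 544 and 351 in Cdh2-cKO. The sides met only at TdT single positive Cdh2-cKO replicate 1 (754), which exceeded the 2 lowest double positive libraries (653 and 748). On the log2 scale, CD45- cells differed from CD45+ cells by -1.46 (standard error 0.23, adjusted p = 3.04e-05).

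*Serpine2* (ENSMUSG00000026249, chromosome 1 from 79794197 to 79861180, minus strand) had the largest difference of all members. TdT single positive libraries had 3179 and 1739 normalized CPM in wild type and 879 and 2213 in Cdh2-cKO. Double negative libraries had 1136, 561 and 165 in wild type and 464, 817 and 1315 in Cdh2-cKO. Both CD45+ populations were low and narrow. Double positive cells had 4.99, 4.86 and 5.22 in wild type and 6.51, 7.08 and 8.24 in Cdh2-cKO. CD45 single positive cells had 3.43, 6.82 and 3.77 in wild type and 7.47, 8.23 and 8.52 in Cdh2-cKO. Between the sides the log2 fold change was 7.61 (standard error 0.35, adjusted p = 4.11e-11).

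**Figure D2:**
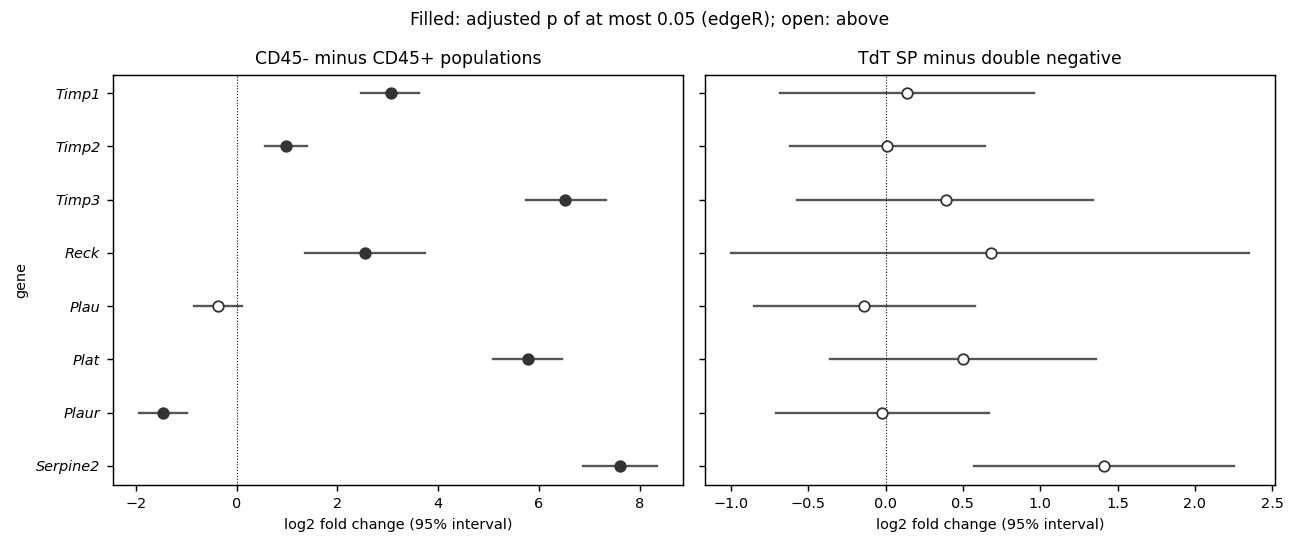
Log2 fold changes with 95% intervals (edgeR) of the 8 tested members between CD45- and CD45+ populations (left) and between TdT single positive and double negative cells (right), on different horizontal scales. Filled points have an adjusted p of at most 0.05, which 7 members reach on the left and none on the right.

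Levels between genes can be compared only per length of their exons. In CD45- cells the mean normalized CPM per kilobase was 818 for *Timp1*, 413 for *Plat*, 304 for *Plaur* and 150 for *Serpine2*, then 67.7 for *Timp2*, 31.5 for *Timp3*, 16.8 for *Plau* and 1.39 for *Reck*. In CD45+ cells *Plaur* led with 806, followed by *Timp1* with 103, *Timp2* with 34.7, *Plau* with 21.3 and *Plat* with 8.04. *Serpine2* (0.756), *Timp3* (0.388) and *Reck* (0.266) were low there. Per length, *Plat* thus exceeded *Plau* in CD45- cells, and *Plau* exceeded *Plat* in CD45+ cells. The ratio of *Plaur* to *Plau* per length, a pair also picked after the values were seen, was 10.4 to 27.4 in CD45- libraries and 27.4 to 77.1 in CD45+ libraries.

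How much of a member's signal on its lower side stood beside markers of the other side was measured directly. Averaged over libraries, 7 of 8 fibroblast markers in CD45+ cells were at 0.455% (*Col1a2*) to 1.01% (*Pdgfrb*) of their CD45- level, and *Thy1*, which T cells also express, was at 4.12%. *Serpine2* was at 0.502%, *Timp3* at 1.23% and *Plat* at 1.95%. *Timp1* was at 12.5%, *Reck* at 19.1% and *Timp2* at 51.3%. The *Reck* value rests on CD45 single positive wild type replicate 2, at 102%, and was 11.5% without it. In each CD45+ library, *Timp1* held 5.60 to 22.3% of its CD45- mean where the summed fibroblast markers held 0.296 to 1.03%. On these averages, *Timp1*, *Timp2* and *Reck* in CD45+ cells stood above all 8 fibroblast markers. *Timp3* and *Plat* lay between the 7 and *Thy1*, and *Serpine2* lay within the 7. Fibroblast markers are only 1 yardstick. Median sums in CD45+ against CD45- libraries were 69.0 against 1278 normalized CPM for pericyte markers and 24.7 against 148 for endothelial markers. For epithelial or tumor markers they were 275.5 against 931.5. The part of carried-over cells in the lower signals was not tested.

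The same was measured for the members that were not called higher in CD45- cells. The 7 leukocyte markers in CD45- cells were at 11.2% (*Ptprc*) to 15.99% (*Laptm5*) of their CD45+ level, and *Plaur* was at 37.7%. The CD45- libraries with the fewest leukocyte transcripts were double negative and TdT single positive wild type replicate 1, with marker sums at 1.48% and 1.60% of the CD45+ mean. In these, *Plaur* was at 26.6% and 18% of its CD45+ mean. The libraries with the highest sums, double negative wild type replicate 3 (56.0%) and TdT single positive Cdh2-cKO replicate 1 (36.7%), had *Plaur* at 49.8% and 67.0%. *Plaur* was thus measured where leukocyte markers were lowest, and was highest of all CD45- libraries in the pair with most of them. Double negative Cdh2-cKO replicate 2 departed from this order, with 544 normalized CPM of *Plaur* at a marker sum of 408. The part of leukocyte transcripts in the *Plaur* level was not tested. Markers of the epithelium or tumor were also present, with sums of 506 to 1996 normalized CPM in double negative, 33.8 to 934 in TdT single positive and 132 to 470 in CD45+ libraries, and their part in any member's level was not tested.

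**Figure D3:**
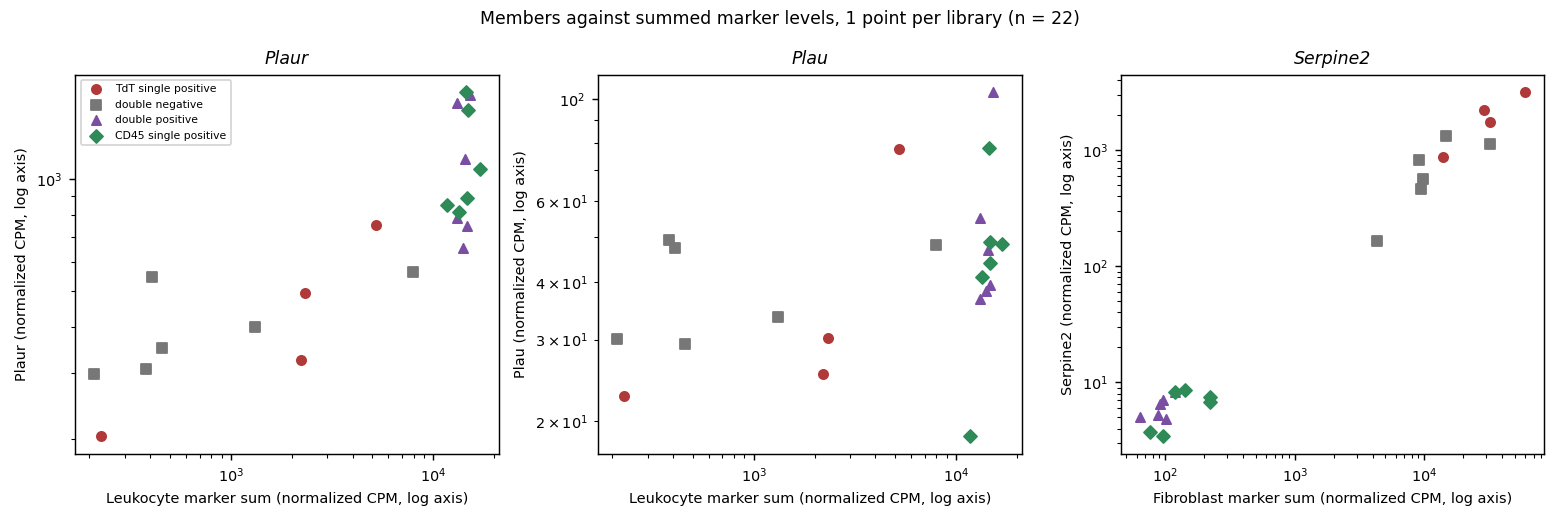
Normalized CPM of *Plaur* and *Plau* against the sum of 7 leukocyte markers, and of *Serpine2* against the sum of 8 fibroblast markers, 1 point per library (n = 22), with the population shown by color and shape and all axes logarithmic. *Plaur* reaches 203 to 299 in the CD45- libraries with the fewest leukocyte transcripts, *Plau* shows no separation, and the *Serpine2* points form a low and a high cloud, the CD45+ and CD45- libraries.

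Next, TdT single positive cells were compared with double negative cells, to ask whether the Osx lineage within the CD45- stroma differed in these genes. By edgeR's test 0 of 8 members passed, where 1.89% of all genes did (1.23% higher and 0.659% lower, and 0.201% to 5.85% in either direction on leaving out 1 library), and 1 of 8 members had an unadjusted p under 0.05 against 19% of all genes. That member was *Serpine2*, with a log2 fold change of 1.41 (95% interval 0.57 to 2.25, adjusted p = 0.0722). Of its 4 TdT single positive libraries, 3 (1739, 2213 and 3179) exceeded every double negative library, and Cdh2-cKO replicate 1 with 879 lay inside their range of 165 to 1315. The call was made under voom (1.43, adjusted p = 0.0298) and DESeq2 (1.38, adjusted p = 0.0242). Without double negative wild type replicate 3 and CD45 single positive wild type replicate 2 together it was 1.18 (adjusted p = 0.0261), and it was also called on leaving out 1 of 3 libraries alone, CD45 single positive wild type replicate 2 (1.41, adjusted p = 0.0495), double negative wild type replicate 1 (1.80, adjusted p = 0.0223) or double negative wild type replicate 3 (1.18, adjusted p = 0.0425). In wild type (1.98, adjusted p = 0.497) or Cdh2-cKO libraries alone (0.82, adjusted p = 0.289) it was not called. Calls over all genes also rose from 284 in the settings that called *Serpine2*. They numbered 718 by voom, 982 by DESeq2 and 1509 without both libraries. On leaving out the 3 libraries singly they were 702, 525 and 878, in the order given. The added calls are thus not particular to *Serpine2*. In wild type libraries alone 0 genes were called, and in Cdh2-cKO libraries alone 1149.

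The sum of fibroblast markers moved in the same direction, with a median of 30590 (13900 to 60190) in TdT single positive and 9566 (4309 to 32490) in double negative libraries, and that of pericyte markers was 2255 (897 to 3374) against 1013 (261 to 1807). The part of cell composition in the *Serpine2* difference was not tested. Per length, the ratio of *Serpine2* to *Plat* was 0.296 to 0.579 in TdT single positive and 0.151 to 0.308 in double negative libraries, a pair picked after the values were seen. The other 7 members differed by at most 0.68 on the log2 scale, in either direction. For *Plat* the difference was 0.50 (95% interval -0.36 to 1.36), for *Timp3* 0.39 (-0.57 to 1.34) and for *Reck* 0.68 (-1.0 to 2.35). *Timp1* (0.14, interval -0.68 to 0.96), *Timp2* (0.01, -0.62 to 0.64), *Plau* (-0.14, -0.85 to 0.58) and *Plaur* (-0.02, -0.71 to 0.67) were closer to 0, and changed sign under some alternatives. The intervals do not show that these genes were equal in both populations.

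Between the CD45+ populations, double positive and CD45 single positive cells, 0 of 8 members were called by edgeR, as was the case under DESeq2 and voom. Of all genes 0.00666% were called by edgeR and 4.06% had an unadjusted p under 0.05. The shares of all genes under DESeq2 and voom are not given. All 8 tested members overlapped between both populations, and the share of all genes that did so was not counted. Only *Timp3* had an unadjusted p under 0.05 (log2 fold change -1.09, 95% interval -2.04 to -0.15, adjusted p = 1.0, edgeR), at levels of 0.481 to 6.96 normalized CPM. *Plaur* differed by -0.06 (-0.68 to 0.55) and *Serpine2* by -0.02 (-0.81 to 0.77).

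Ordered by the mean of both genotypes, TdT single positive cells came first and double negative cells second for *Timp1*, *Timp2*, *Timp3*, *Reck*, *Plat* and *Serpine2*. The step from the second to the third population was called for each of these except *Reck* (log2 1.77, adjusted p = 0.0590), and no other step was. For *Plaur*, the CD45 single positive and double positive cells came first, and the called step lay between double positive and double negative cells (1.42, adjusted p = 0.000680). For *Plau* no step between neighbours was called. For *Reck* the middle step was called without CD45 single positive wild type replicate 2 (2.95, adjusted p = 0.00262). Within TdT+ cells, TdT single positive against double positive, 6 of 8 members were called higher and 1 lower (49.7% of all genes in either direction, 27% higher and 22.7% lower), and within TdT- cells, double negative against CD45 single positive, 5 and 1 (53.5%, 26.1% and 27.4%). TdT single positive against CD45 single positive cells gave 6 and 1 (50%, 25.7% and 24.3%), and double negative against double positive cells 6 and 1 (55.3%, 28.3% and 27%).

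The test of whether the difference by TdT was itself unequal between CD45- and CD45+ cells called 0 of 8 members (edgeR and DESeq2). By edgeR it called 0.00666% of all genes, so the lack of calls is not particular to the members. The share of all genes under DESeq2 is not given. At an unadjusted p under 0.05 (edgeR) stood 2 of 8 members, *Timp3* (1.48, standard error 0.64, adjusted p = 0.485) and *Serpine2* (1.43, standard error 0.55, adjusted p = 0.480), where 9.53% of all genes had such a p.

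The genes whose profile over the 8 group means lay closest to each member were listed as a description, by the root-mean-square difference of centred log2 levels. For *Serpine2* they were *Adamts2* (0.128), *Dkk3* (0.139) and *Col6a3* (0.172), for *Plat* *Pcolce* (0.142), *Prss23* (0.160) and *Ccn1* (0.168), and for *Timp3* *Osmr* (0.212), *Wnt5a* (0.217) and *Pamr1* (0.263). The closest genes to *Timp1* were *Mill2* (0.135), *Akr1b8* (0.149) and *Uaca* (0.151), to *Timp2* *Gstm5* (0.108), *Laptm4a* (0.11) and *Errfi1* (0.129), and to *Reck* *Nuak1* (0.187), *Ripor3* (0.192) and *P3h1* (0.201). *Plaur* was closest to *Gpr146* (0.111), *Nabp1* (0.133) and *Ssh3* (0.140). *Plau*, whose own profile varied by only 0.380, was closest to *Gm10364*, *Slc37a4* and *Ubox5* (0.11 to 0.147). Among the members, *Timp3* and *Plat* (0.43) and *Timp1* and *Reck* (0.43) were nearest to each other, and *Plaur* and *Serpine2* (4.50) farthest apart.

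Other genes of the plasminogen system were taken from a list of 20, of which 13 were tested. Between CD45- and CD45+ cells, 5 were higher, 3 lower and 5 not called (31.1% and 32.6% of all genes being called higher and lower), with a median log2 fold change of 0.44. *Plg*, the plasminogen gene itself, which the liver makes, had 1 count over all 22 libraries. *Vtn*, encoding vitronectin, which binds the urokinase receptor, was called higher (adjusted p = 1.45e-05) from 1206 counts over the CD45- libraries, at most 19.0 normalized CPM in any of them, against 3 counts over the CD45+ libraries, too few for a fold change. *Mrc2*, encoding an endocytic collagen receptor that associates with the urokinase receptor, was higher by 6.46 (adjusted p = 2.68e-10), as were *Tfpi2* (7.17), *A2m* (5.71) and *Serpini1* (1.83).

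Among plasminogen receptors, *Plgrkt* was lower in CD45- cells (-1.50, standard error 0.18, adjusted p = 2.15e-06), at 39.6 to 132 normalized CPM against 139 to 330, with no overlap. *S100a10* (-0.05, adjusted p = 0.836) and *Anxa2* (0.40, adjusted p = 0.0575), which together form a plasminogen-binding complex, were abundant on both sides, with means of 800 and 3053 normalized CPM in CD45- and 764 and 2194 in CD45+ cells. *Eno1* was lower by -0.37 (adjusted p = 0.0346) and *St14*, encoding matriptase, by -4.41 (adjusted p = 0.000134). *Serpinb2*, encoding PAI-2, was not called (1.90, adjusted p = 0.0505), and CD45 single positive wild type replicate 2, the CD45+ library that stood apart by its markers, had 626 normalized CPM, above every other library. *Lrp1*, which clears protease and inhibitor complexes, and *Thbd* were not called either (0.44 and 0.13). Between TdT single positive and double negative cells 0 of the 13 were called by edgeR, with 4 of 13 at an unadjusted p under 0.05, against 1.89% and 19% of all genes.

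**Figure D4:**
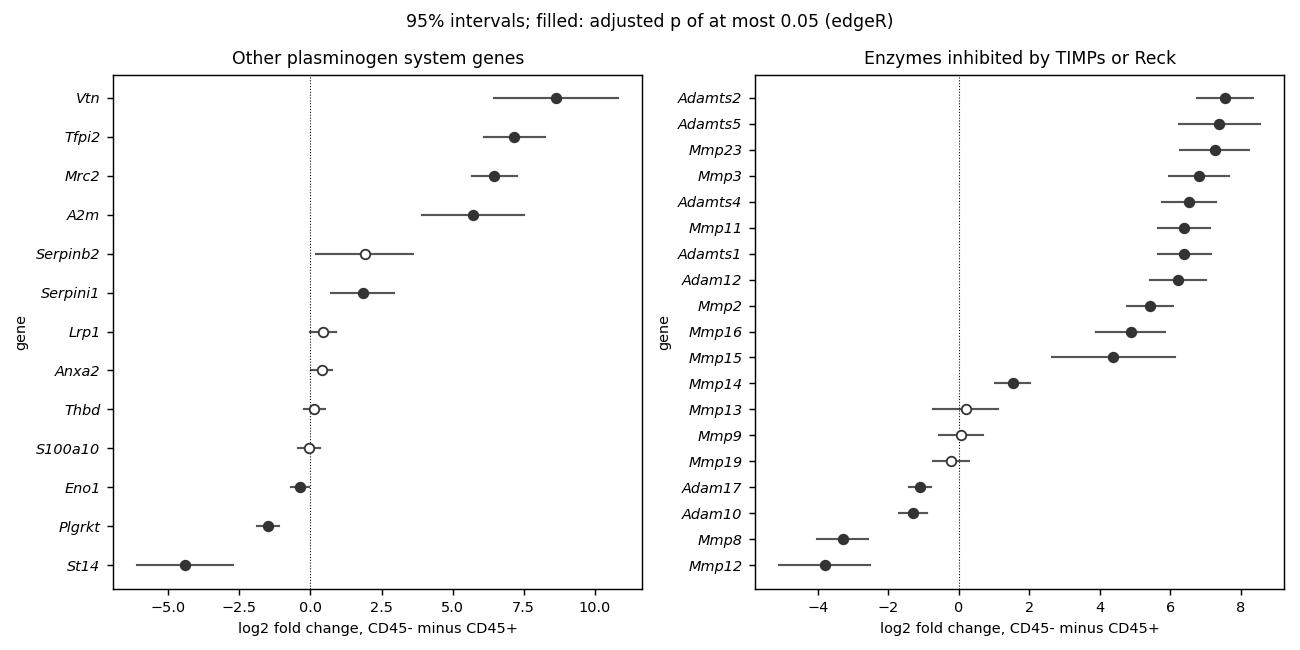
Log2 fold changes between CD45- and CD45+ populations with 95% intervals (edgeR) for the 13 tested genes of the plasminogen system beside the members (left) and for 19 enzymes that TIMPs or Reck inhibit (right). Filled points have an adjusted p of at most 0.05, which 8 of 13 and 16 of 19 reach, with genes on both sides of 0 in each panel.

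The enzymes that TIMPs or Reck are known to inhibit were taken from a list of 19, all tested. Of these, 12 were higher in CD45- cells, 4 were lower and 3 were not called (31.1% and 32.6% of all genes being called higher and lower), and the median log2 fold change was 4.88 against -0.06 over all genes. Higher were the ADAMTS genes of the list, from *Adamts1* (6.4) to *Adamts2* (7.56), the stromelysin gene *Mmp3* (6.82), the gelatinase gene *Mmp2* (5.43) and the membrane-type *Mmp14* (1.53). *Mmp12*, the macrophage elastase (-3.81), *Mmp8*, the neutrophil collagenase (-3.30), and the sheddases *Adam10* (-1.30) and *Adam17* (-1.10) were lower. *Mmp9*, *Mmp13* and *Mmp19* were not called (0.06, 0.19 and -0.21). *Mmp9* was the only 1 of the 19 called between TdT single positive and double negative cells (2.82, standard error 0.45, adjusted p = 0.00549), where 1.89% of all genes were.

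Finally, libraries labelled Cdh2-cKO were compared with wild type within each population. By edgeR's test 0 of 8 members were called in any of the 4 populations, against 0.00666% of all genes in TdT single positive cells and 0 in the other 3. DESeq2 and voom called 0 members as well, and their shares of all genes are not given. At an unadjusted p under 0.05 stood 2 of 8 members in TdT single positive cells and 1 of 8 in CD45 single positive cells, where 10.5% and 9.81% of all genes did, and 0 in double positive (3.43%) and double negative cells (9.6%). In TdT single positive cells *Plaur* had 754 and 492 normalized CPM in Cdh2-cKO against 203 and 326, a log2 fold change of 1.24 (95% interval 0.15 to 2.32, adjusted p = 0.435). *Plau* had 78.0 and 30.2 against 22.6 and 25.3 (1.18, 0.06 to 2.30, adjusted p = 0.459). Both libraries of Cdh2-cKO were above both of wild type for these genes, and below them for *Timp2* and *Reck*, but 42.1% of all genes separate in this way with 2 libraries against 2. Of the Cdh2-cKO libraries, the one with the higher values, replicate 1, also had the second highest leukocyte marker sum of all CD45- libraries (5228). Without it the log2 fold changes were 0.90 for *Plaur* and 0.34 for *Plau*, and the part of leukocyte transcripts was not tested.

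In CD45 single positive cells *Plat* had 28.2, 42.8 and 26.8 normalized CPM in Cdh2-cKO against 10.4, 25.5 and 8.03 (log2 fold change 1.15, 95% interval 0.03 to 2.28, adjusted p = 0.500). *Plat*, *Timp3* and *Serpine2* did not overlap between genotypes in this population, and neither did *Serpine2* in double positive cells, where 10.1% and 12.8% of all genes did not overlap. *Serpine2* differed by 0.79 (-0.33 to 1.91) and 0.53 (-0.58 to 1.65) in these populations, at levels of at most 8.52 normalized CPM. In double negative cells every member overlapped, where 9.22% of all genes did not. The differences ran from -0.20 (*Reck*) to 0.48 (*Serpine2*). The difference between CD45- and CD45+ cells was not called as unequal between genotypes for any of the 8 members (edgeR and DESeq2). By edgeR it was called for 0 of all 15018 genes, so the lack of calls is not particular to the members. The share of all genes under DESeq2 is not given. Of the members, *Timp1* alone had an unadjusted p under 0.05 (edgeR, -1.11, 95% interval -2.22 to -0.01, adjusted p = 0.643), against 7.7% of all genes.

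**Figure D5:**
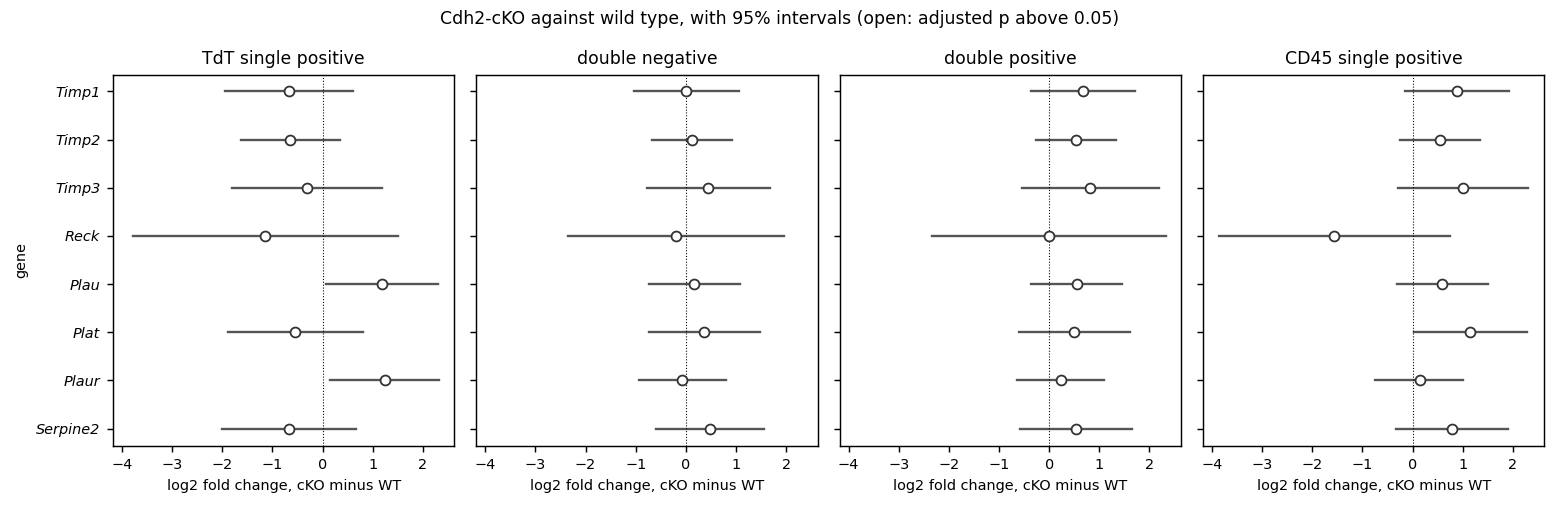
Log2 fold changes between Cdh2-cKO and wild type libraries with 95% intervals (edgeR), for the 8 tested members in each of the 4 populations. All points are open, since none had an adjusted p of at most 0.05, and the intervals of *Reck* are the widest.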

How the data were processed

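RNA was sequenced from 22 libraries of sorted stroma, cDNA having been made with the Clontech SMARTer kit. For each library the authors aligned reads with STAR 2.0.4b to GRCm38 and ran featureCounts on Ensembl gene models, keeping reads with a single place and a single gene (version 1.45 in the submitters' processing notes). The counts deposited per gene are raw whole numbers. The deposited CPM and RPKM were computed by the authors from these counts, which they matched within 5.1e-14 in relative terms, and were not used further. Groups and replicate numbers came from the labels.

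A gene was tested if 2 or more libraries exceeded 1 CPM and it was not among 355 rRNA genes, which left 15018 genes (R 4.3.3). Counts were scaled with TMM factors and edgeR 4.0.16 fitted 1 mean per population and genotype (8 groups, all 22 libraries). Adjusted p-values are Benjamini-Hochberg over all genes, called at 0.05, and standard errors were derived from the quasi-likelihood test. The script was tested on simulated data. Alternatives were limma 3.58.1 (voomWithQualityWeights, as in the study's methods), DESeq2 1.42.0, RLE factors, no filter, 1 genotype only, a replicate block, and leaving out libraries. The members, marker lists, named genes (the members, the 3 nearest profiles per member and the listed partners) and the pair of libraries left out were chosen with earlier results of these data known, and leaving out 3 libraries was added after seeing the data. The reads carry no molecular identifiers, so count floors cover counting error only. Promoters were in the RefSeq table for 7 of 9 members. 1 gene of the list of plasminogen system genes is not reported here.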

Additional observations from a re-analysis of the deposited data

How the results depend on the processing

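Between CD45- and CD45+ cells, 6 members were called higher and 1 lower, also with the replicate number as a block. Of 30 same-numbered pairs of libraries, 10 had correlated deviations over 0.1 (-0.296 to 0.593 over these pairs), so some deviate together but not every pair. Differently numbered libraries also reached 0.428 (TdT single positive wild type replicate 2 with double negative wild type replicate 3). That value mirrors -0.428 for TdT single positive wild type replicate 1 with the same double negative library. With 2 libraries in a group, deviations from their mean are equal and opposite, so values for TdT single positive libraries are not independent. The count does not show whether a number marks shared mice, and the numbers were not taken as pairing. The 6 became 5 in wild type libraries only and 7 of 9 without a filter. The 7th was *Timp4*, which had 34 counts in all and was tested only in that setting. Over all alternatives the members called higher were 4 to 6 for double negative against either CD45+ population and 5 to 6 for TdT single positive against either. The members called lower became 2, by *Plau*, without all 3 libraries that stand apart, and were 1 to 2 on leaving out 1 library. Between TdT single positive and double negative cells, the members called higher became 1, *Serpine2*, under voom, under DESeq2, without both and without all 3 libraries that stand apart, and were 0 to 1 on leaving out 1 library. The members called lower between TdT single positive and double positive cells were 0 in Cdh2-cKO libraries only, 2 without all 3 and 1 to 2 on leaving out 1. Against CD45 single positive cells they were 0 in Cdh2-cKO libraries only and 2 without all 3. For double negative cells they were 0 in wild type libraries only, against either CD45+ population. Shares of all genes called under each alternative are not given for the comparisons of CD45- with CD45+ cells. The counts for these comparisons therefore describe the members alone. The causes of the changes were not tested.

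Fold changes of all 8 tested members were followed under the alternatives between CD45- and CD45+ cells and between TdT single positive and double negative cells. In other comparisons only a few members were followed. Among the values followed, signs turned only between TdT single positive and double negative cells, for *Timp1*, *Timp2*, *Timp3*, *Plau* and *Plaur*. In Cdh2-cKO libraries only, the log2 fold changes were -0.22 (*Timp1*), -0.38 (*Timp2*), -0.01 (*Timp3*), 0.36 (*Plau*) and 0.63 (*Plaur*). Without both libraries they were -0.03 (*Timp1*), -0.08 (*Timp2*) and 0.12 (*Plaur*). *Timp2* was at -0.01 under DESeq2 and RLE factors and -0.16 without all 3, and *Plaur* at 0.01 without a filter. On leaving out 1 library the ranges were -0.20 to 0.49 (*Timp1*), -0.08 to 0.12 (*Timp2*), -0.56 to 0.13 (*Plau*) and -0.21 to 0.14 (*Plaur*). Over all genes that comparison gave 284 calls, 718 by voom, 982 by DESeq2, 92 without a filter, 185 with the block, 0 in wild type and 1149 in Cdh2-cKO libraries only, and 1509 without both. Leaving out 1 library gave 30 (without TdT single positive Cdh2-cKO replicate 2) to 878 (without double negative wild type replicate 3). With 2 TdT single positive libraries per genotype, differences between genotypes have wide intervals.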
